A study of Mus musculus with 5 samples.

Results

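The 10 genes described here are the nuclear end of the Hippo pathway and its nearest regulators in the E10.5 mouse heart. They are the 4 TEAD transcription factors (*Tead1*, *Tead2*, *Tead3*, *Tead4*), the coactivators *Yap1* and *Wwtr1* (the gene of TAZ), the kinases *Lats1* and *Lats2*, and the angiomotin-like genes *Amotl1* and *Amotl2*. They were chosen by name out of the 13486 genes with a tag in any of 5 Tag-seq libraries, and not by their values. All 10 had tags in the atria and in the *Twist1* null AVC, 9 in the wild-type AVC and in the OFT, and 8 in the ventricles.

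Tag-seq counts short cDNA tags. The enzyme NlaIII cuts bead-bound cDNA wherever CATG stands, 17 bases are sequenced from the cut nearest the poly(A) tail, and every distinct sequence, called a tag type, has its count listed. A transcript gives in principle 1 tag whatever its length, so the levels are counts of transcripts and are not divided by length. Of the libraries 4 came from wild-type embryos labelled C57BL/6 (C57BL/6J in the study's methods), from the atrioventricular canal (AVC), the outflow tract (OFT), the atria and the ventricles, and 1 from the AVC of *Twist1* knockout embryos of the ICR strain, all at embryonic day 10.5 (Theiler stage 17). Each library was made from dissected tissue pooled over at least 3 litters, with at least 400 ng of RNA, and each group has 1 library.

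TEAD proteins bind DNA but activate little without a partner, and YAP and TAZ are the partners that the Hippo pathway controls. When the MST kinases and their scaffold SAV1 are active, LATS1 and LATS2 phosphorylate YAP and TAZ, which then stay in the cytoplasm or are degraded. Angiomotin-like proteins bind YAP and TAZ at cell junctions and hold them out of the nucleus. *Lats2* and *Amotl2* are also known targets of YAP and TEAD in many cell types. In the embryonic heart the pathway is known for its control of cardiomyocyte proliferation and for a role in the endocardial cells that form the cushions.

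Of 54 tag types that matched these genes in sense, 53 belonged to 1 gene, and together they were read 12829 times. Their places are given on GRCm38, and the letters are those of GENCODE M21 transcripts. Of the 53, 44 lay in a 3′ UTR, 8 in coding sequence and 1 in a 5′ UTR. The tag at the NlaIII site nearest the 3′ end carried most tags of every gene over the 5 libraries together, from 12 of 20 tags of *Tead4* to 92.6% of *Tead2* tags. These tags are shown because the levels rest on them. The lower case catg is the NlaIII site and the capitals are the bases that were read.
*Tead1*, chr7:112906665-112906685, plus strand: catgTCTTTGCAAAGTGACAC
*Tead2*, chr7:45233050-45233070, plus strand: catgAGCCACGGGGGCTGGCT
*Tead3*, chr17:28331833-28331853, minus strand: catgTATTATATATATATATT
*Yap1*, chr9:7932167-7932187, minus strand: catgCTGACTGTGGGAGATTT
*Wwtr1*, chr3:57455993-57456013, minus strand: catgTCACGGAGTACTGCGTT
*Lats1*, chr10:7715570-7715590, plus strand: catgTTGGTTATTTTACCCCT
*Lats2*, chr14:57690244-57690264, minus strand: catgAGAGGTGTCTGTCACAT
*Amotl1*, chr9:14542147-14542167, minus strand: catgTGTAACCTTTGGCACCT
*Amotl2*, chr9:102733325-102733345, plus strand: catgGCTGTTTTGTTACGCCA

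The base after the site is given because the ratios between libraries moved with it. *Tead1*, *Tead3*, *Wwtr1*, *Lats1* and *Amotl1* have a main tag that starts with T, and *Tead2*, *Yap1*, *Lats2* and *Amotl2* one that does not. Such T-first tags made up 13.6% of the AVC library and 15.0% of the OFT library, but 32.1, 22.2 and 32.4% of the atrial, ventricular and null libraries. These library shares carry the mix of genes as well. Within 493 genes with both kinds of tag, T-first tags were higher in the ventricles over the atria, by a median log2 of 0.25. The *Tead3* tag is made of A and T alone, mostly of alternating TA. It matched no other gene among the GENCODE transcripts, and whether the same letters stand elsewhere in the genome was not checked.

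Further tag types are shown because their share of a gene's tags changed between libraries or because they mark another transcript.
*Tead3*, next site upstream, chr17:28332431-28332451: catgGAGGACACCTTGGGGCT
*Tead1*, site 7 from the 3′ end, chr7:112904602-112904622: catgTCCAGACTGTGGAGACT
*Yap1*, site 9 from the 3′ end, chr9:7933937-7933957: catgAGACAGCTTCCATAGAA
*Wwtr1*, coding, site 12 from the 3′ end, chr3:57459068-57459088: catgACCGTCAATCCCCAGCA
*Lats2*, site 2 from the 3′ end, chr14:57690704-57690724: catgAGCAGGGGTTTCTAGTA
*Lats2*, last site of a second RefSeq transcript with its own 3′ end, chr14:57722246-57722266: catgGTTACAGTTTTTTGTCA
*Amotl2*, site 5 from the 3′ end, chr9:102732590-102732610: catgCCCAGCACCAGGTTCTC
*Tead4*, last site of a RefSeq transcript, chr6:128227149-128227169: catgTTCAATAAATATGCATT
*Tead4*, last site of the GENCODE transcript Tead4-203, chr6:128224546-128224566: catgGACTACACAGTGAAGCC

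The libraries held 4223810 (ventricles) to 12977237 (null) tags in tag types read more than 5 times, here called HQ tags, and levels are tags per 1000000 HQ tags (TPM). Intervals are exact 95% Poisson intervals and cover counting error only. The gene deleted in the mutant, *Twist1*, gave 918 TPM in the wild-type AVC and 4.55 in the null, the lowest of the libraries, with 299, 63.4 and 55.9 for OFT, atria and ventricles. Where its tags lie relative to the deleted part is not given in the sources used here. Tissue markers went partly with the labels. The AVC markers *Tbx2*, *Tbx3* and *Bmp2* summed to 331 TPM in the AVC and 193 in its null. The OFT, atria and ventricles had 50.5, 11.8 and 0. Of these genes *Bmp2* gave 220 TPM in the AVC and 51.2 in the null, *Tbx3* 90.0 and 121, and *Tbx2* 20.1 and 21.1. The ventricular list was highest in the ventricles, at 6245 TPM, of which *Myl2* gave 6196. Its other genes were not highest there, with *Irx4* at 2.84 TPM against 27.2 in the AVC and *Hey2* at 46.4 against 84.1 in the OFT. The atrial list was not highest in the atria, with 210 TPM from the atria and 379 from the AVC. *Nppa* had 1922 tags in the AVC against 85 in the atria. *Nr2f2* was highest in the atria, at 190 TPM against 62.5 in the AVC and 76.7 in the null. *Sln* had 6 atrial tags and none listed in the AVC. The 2 chamber libraries stood apart. Their 9 cardiomyocyte markers summed to 2799 and 3496 TPM, against 17281 (AVC) and 18666 (OFT), and *Nkx2-5* had no listed tag in either chamber. Haemoglobin genes took 21.5% of atrial and 4.67% of ventricular tags, but 0.242 and 0.307% of those from AVC and OFT.

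Comparisons used the two-sided exact test of edgeR with the dispersion of 0.12 that the study's methods give, and genes below 0.05 before adjustment are named as called. With 1 library a group each test compares libraries, not conditions, and the spread between embryos enters only through that fixed dispersion. In such tissue libraries fewer cells of a type and less RNA per cell cannot be told apart.

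*Tead1* was the most abundant TEAD in all 5 libraries. The null gave 163 TPM, the wild-type AVC 148 (95% interval 138 to 158), the OFT 139, the ventricles 76.9 and the atria 57.4. The AVC, OFT and null lay above both chambers, and the counting intervals of the 2 sets did not overlap. Of all genes, however, 51.5% had a higher ratio in the AVC over the chambers than *Tead1*. No neighbours in this order were called apart, and of the 10 pairs of libraries 1 was called, and 0 with TMM scaling. For *Tead2* the AVC gave 120 TPM (111 to 129), the OFT 96.8, the null 44.4, the ventricles 10.9 and the atria 7.29. Its order had 1 clear step, between the null and the ventricles (exact p = 0.0088), which became p = 0.0519 with TMM scaling. In the chambers *Tead2* stood at 46 and 34 tags in all.

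*Tead3* was high in the null, with 27.2 TPM (24.4 to 30.2), and almost equally so in the OFT, with 26.0 (21.8 to 30.7). The AVC gave 8.56 TPM (6.39 to 11.2), the atria 8.14 and the ventricles 3.31. The step between the OFT and the AVC was called (exact p = 0.0384), and the other neighbours were not.

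*Tead4* was hardly seen through its RefSeq transcripts. The atria had 6 tags of its last site, the null 6 of that site and 8 of a site further upstream, and the AVC, OFT and ventricles had none listed. A different last exon, in the GENCODE protein-coding transcript Tead4-203 (chr6:128224288-128224673), held a tag type that was listed in every library. The ventricles gave 12.5 TPM of it (9.40 to 16.4), the atria 11.6, the OFT 7.02, the null 4.32 and the AVC 4.28 (2.80 to 6.27). The chambers were thus the highest libraries for this tag type, where they were the lowest for *Tead2*. With all GENCODE transcripts counted, *Tead4* had a log2 ratio of -1.57 in the AVC over the chambers (exact p = 0.0526) and was called in none of the 5 comparisons.

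*Yap1* and *Wwtr1*, the coactivators, differed in their order. For *Yap1* the AVC gave 124 TPM (116 to 133), the OFT 66.4, the null 55.9, the atria 10.9 and the ventricles 9.47. For *Wwtr1* the OFT came first with 39.1 TPM (33.9 to 44.8), then the AVC with 30.3, the null with 28.8, the ventricles with 8.52 and the atria with 8.36. Both had 1 step that was called, between the null and the chambers, and with TMM scaling that of *Yap1* kept its call (exact p = 0.0439) and that of *Wwtr1* did not (exact p = 0.112).

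The kinase gene *Lats2* gave 40.7 TPM in the AVC (35.7 to 46.1), and the OFT had 30.9, the null 12.4 and the atria 1.93, from 9 tags, while the ventricles had no listed tag. For *Lats1* the null gave 15.7 TPM (13.6 to 18.0), the AVC 9.22, the OFT 9.11, the atria 1.71 and the ventricles 1.42. The chambers held 8 and 6 *Lats1* tags, so their values rest on few counts.

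Both angiomotin-like genes were lowest in the chambers. For *Amotl1* the null gave 41.6 TPM (38.2 to 45.3), the AVC 38.8, the OFT 34.2, the ventricles 7.34 and the atria 4.29. For *Amotl2* the AVC gave 61.1 TPM (55.0 to 67.6), the OFT 51.3, the null 40.8, the ventricles 21.5 and the atria 11.1. No neighbours in the order of *Amotl2* were called apart.

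**Figure D1:**
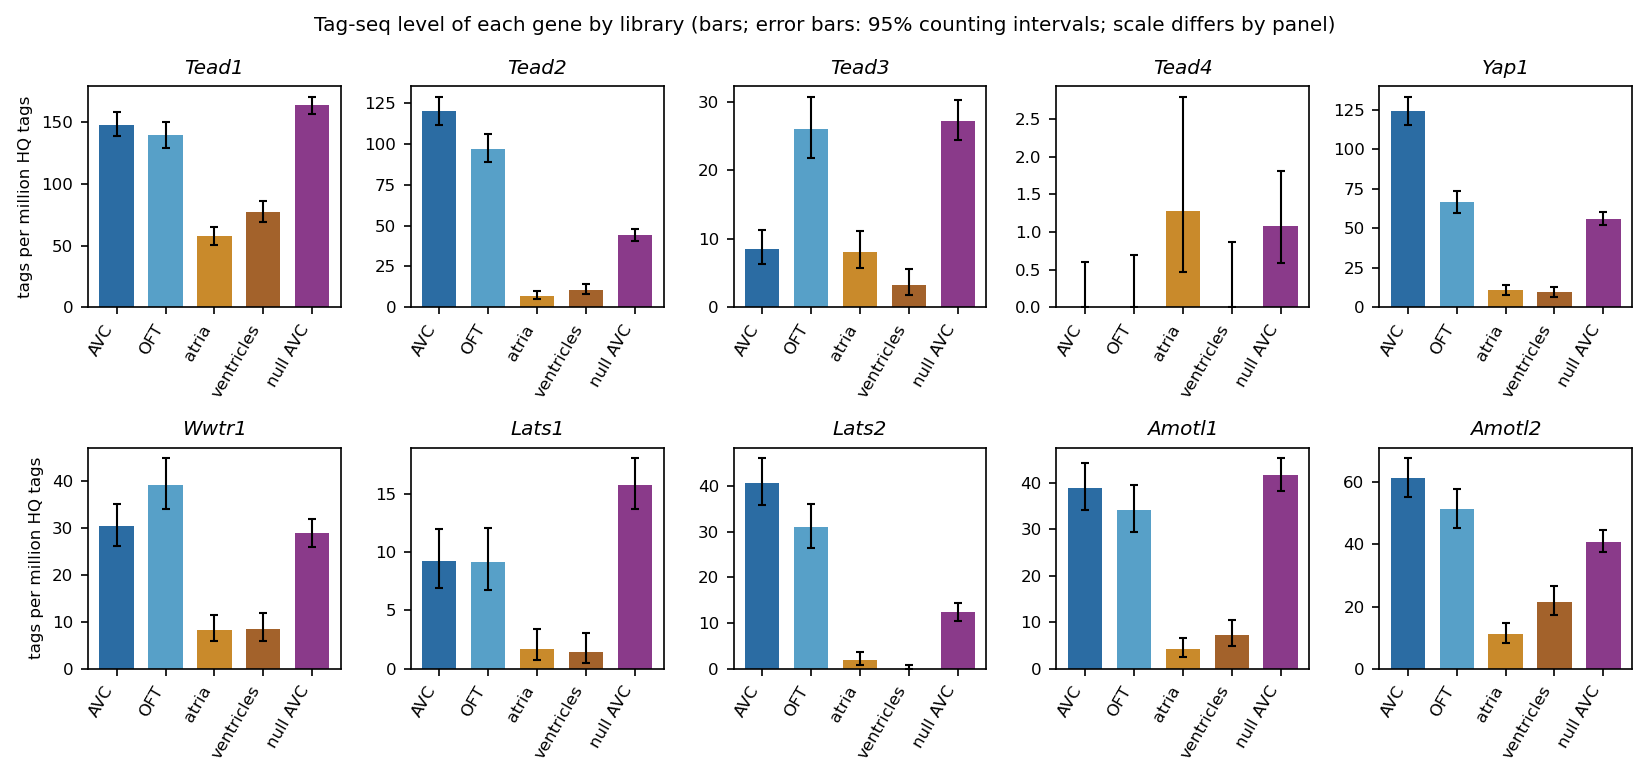
Level of each of the 10 genes in TPM (vertical axis, linear, its scale set per panel) in the 5 libraries, with 95% Poisson intervals as error bars. *Tead2*, *Yap1* and *Lats2* are lowest in the atria and ventricles and between them and the wild-type AVC in the null, while *Tead3* is as high in the null (27.2 TPM) as in the OFT (26.0).

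The comparison of the cushion regions with the chambers asks which genes were enriched where the valves form. In the AVC 7 of the 10 genes were higher than in the summed atria and ventricles, and none was lower. *Lats2* was 40.2-fold higher (log2 ratio 5.30 ± 0.86 SE, exact p = 1.61e-08), *Tead2* 13.3-fold (3.73 ± 0.73, p = 4.63e-06) and *Yap1* 12.1-fold (3.60 ± 0.72, p = 8.36e-06). *Amotl1* was 6.77-fold higher (exact p = 0.00055), *Lats1* 5.85-fold (p = 0.0034), *Amotl2* 3.80-fold (p = 0.0111) and *Wwtr1* 3.59-fold (p = 0.0171). *Tead1* had a log2 ratio of 1.15 ± 0.71 (exact p = 0.117) and *Tead3* of 0.55 ± 0.76 (exact p = 0.5). Where missing tag types were counted as 5 tags the ratio of *Lats2* was 3.404, and without the ventricles, where it had no listed tag, 4.38. By the last site alone *Yap1* was at 4.75, and *Wwtr1*, at 0.91, was not called. All 7 also passed an adjusted p of 0.05 over all genes (edgeR, Benjamini-Hochberg), and the share of all genes that passed it is not given here.

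Many other genes did the same. Of 12503 genes tested 43.4% had a call as higher in the AVC, and 8.12% as lower, and the median log2 ratio over all genes was 1.23, against 2.54 over the 9 members with tags on both sides. TMM scaling, which centres the libraries on most genes, moved all ratios by -0.95. *Lats2* (4.36), *Tead2* (2.78), *Yap1* (2.65) and *Amotl1* were then still called higher, as 25.6% of all genes were, and *Lats1* (1.59), *Amotl2* (0.97) and *Wwtr1* (0.89) lost their calls. *Tead4*, with 6 chamber tags and none in the AVC, was called lower under that scaling, as 17.5% of all genes were. Of all genes 14.9% had a higher ratio than *Lats2*, 18.4% than *Tead2*, 19.1% than *Yap1* and 51.5% than *Tead1*.

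In the OFT 8 of the 10 genes were higher than in the same chamber libraries, which both comparisons share, and 40.6% of 12451 genes were. None was lower, against 8.88% of all genes. *Lats2* was 30.6-fold higher (log2 ratio 4.91 ± 0.86, exact p = 1.07e-07), *Tead2* 10.8-fold (p = 2.07e-05) and *Yap1* 6.49-fold (p = 0.000538). The others were *Amotl1* (5.96-fold), *Lats1* (5.79-fold), *Wwtr1* (4.64-fold), *Tead3* (4.45-fold, exact p = 0.0067) and *Amotl2* (3.19-fold). *Amotl2* missed an adjusted p of 0.05 (0.0629, edgeR) and lost its call when haemoglobin tags were left out of the totals (exact p = 0.0511). The other 7 passed the adjustment, and the share of all genes that passed it is not given here. *Lats2* was at 2.64 with missing tag types counted as 5 tags and at 3.99 without the ventricles, and *Tead3* was at 2.96 without the atria. *Tead1* had a log2 ratio of 1.06 ± 0.71 and was not called. The median was 2.52 over the members and 1.07 over all genes. With TMM scaling *Lats2*, *Tead2*, *Yap1* and *Amotl1* kept their calls, and 26.2% of all genes were called higher.

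The first base of the tags moved with these ratios. Within 1027 genes that had both kinds of tag, tags that start with T were lower in the AVC over the chambers by a median log2 of -0.68. The 4 members whose main tag starts with another base had log2 ratios of 1.92 to 5.30 there. The 5 with a T-first main tag and tags on both sides had 0.55 to 2.76. *Tead4*, whose main tag also starts with T, had no listed AVC tag and is left out. When an offset for the bases of the tags, fitted between tags of the same gene, was added, the ratio of *Tead1* became 2.56 and that of *Tead3* 1.51, and both were called by a likelihood ratio test. *Lats2* (3.44), *Yap1* (2.22), *Amotl1* (2.11) and *Tead2* (2.02) were still called, *Amotl2* (1.05) was not, and 42.9% of all genes were called higher. *Tead4* was called lower, as 6.0% of all genes were. In the OFT the same offset gave *Tead1* 2.43, *Tead3* 2.93 and *Lats2* 3.28, which were called, and *Yap1* 1.35 and *Amotl2* 1.12, which were not. There 7 members were called higher, with 40.7% of all genes, and *Tead4* lower, with 7.22%.

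With the atria alone as the reference 8 genes were called in the AVC (the added one, *Tead4*, with 6 atrial tags and none in the AVC, was lower) and 8 in the OFT, where 52.5 and 51.4% of all genes were called in either direction. With the ventricles alone 7 and 7 were called, and 48.9 and 47.6% of all genes. *Amotl2* was the gene lost in the OFT without the atria, at a log2 ratio of 1.25 (exact p = 0.0979).

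Between the cushion regions only *Tead3* was called, among the 9 members with tags in either. It gave 137 tags in the OFT and 52 in the AVC, a 3.04-fold difference (log2 ratio 1.60 ± 0.74, exact p = 0.0384), while 5.22% of 12541 genes were called higher and 7.35% lower in the OFT. With TMM scaling it was also called, where 5.45% of genes were higher. The adjusted p was 0.324. Both of its tag types were higher in the OFT, the AT-rich one by 1.74 (110 against 38 tags) and the site upstream by 1.15 (27 against 14) on the log2 scale. With the tag offset the ratio was 1.48 and was not called. *Yap1* was at -0.90 ± 0.71 (exact p = 0.217), and the other 7 lay between -0.39 and 0.37. Between the chambers only *Lats2* was called, with 9 atrial and no ventricular tags (exact p = 0.0168), where 9.03% of 10705 genes were called lower and 11.1% higher in the ventricles. It was also called with TMM scaling, where 10% of genes were lower. With the tag offset *Lats2*, *Tead4* and *Tead3* (-1.93) were called lower, where 10.6% of genes were. A missing tag type may have been read up to 5 times, here 1.18 TPM, and the atrial interval of 0.882 to 3.66 TPM includes that level.

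**Figure D2:**
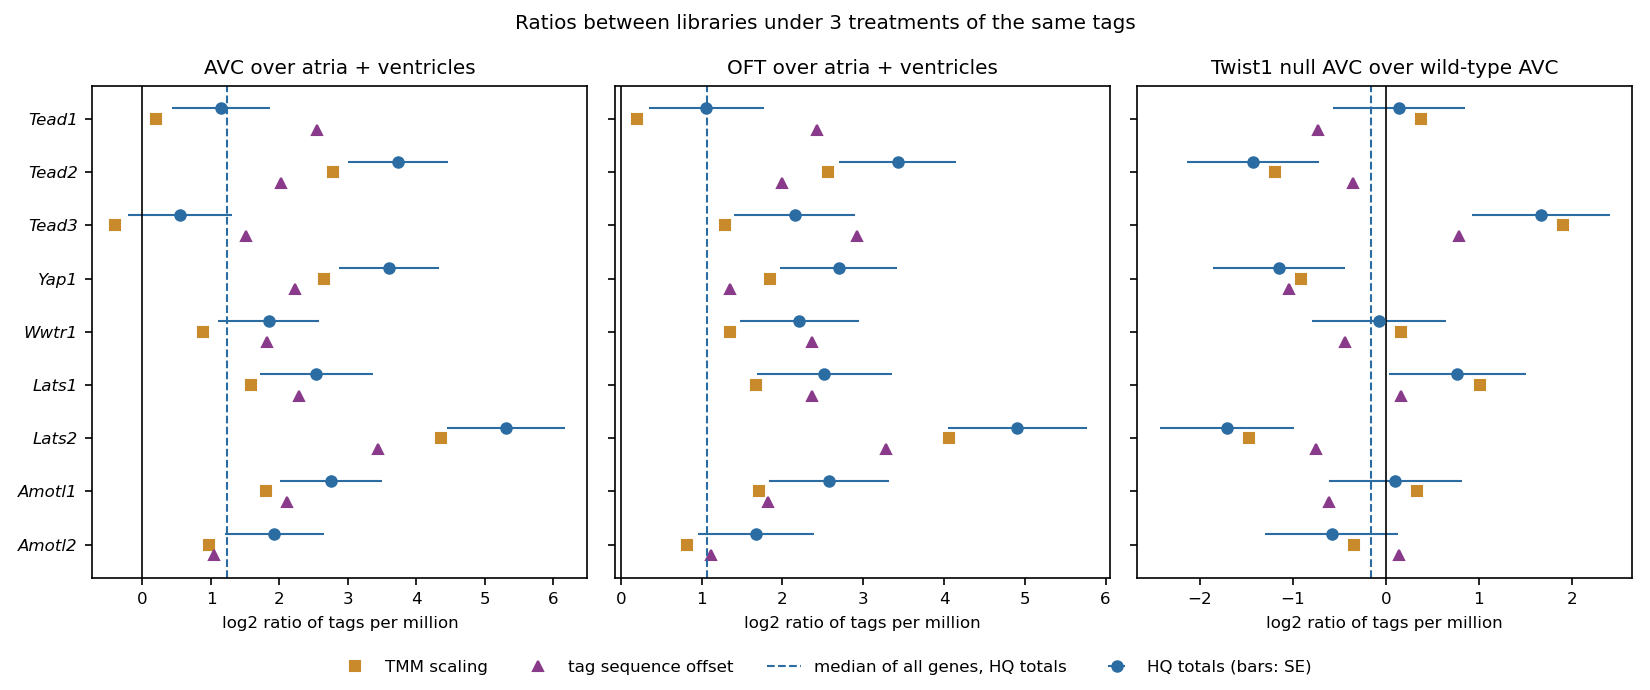
Log2 ratios (horizontal axis) of 9 genes in the AVC and OFT over the summed chambers and in the null over the wild-type AVC, with HQ totals (circles, bars are SE), TMM scaling (squares) and the tag sequence offset (triangles). *Tead4* is left out because it had no listed tag on 1 side of each comparison. The dashed line is the median of all genes, and *Lats2*, at 5.30 and 4.91, lies farthest to the right in the first 2 panels.

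The *Twist1* null AVC was compared with the wild-type AVC to ask which genes moved without TWIST1. *Lats2* was lower and *Tead3* higher, *Tead4* was called on 14 tags against none, and the other 7 genes were not called. *Lats2* fell from 40.7 to 12.4 TPM, 3.28-fold (log2 ratio -1.71 ± 0.72 SE, exact p = 0.0237, adjusted p = 0.132). *Tead3* rose from 8.56 to 27.2 TPM, 3.18-fold (1.67 ± 0.74, exact p = 0.0305, adjusted p = 0.149). *Tead2* went from 120 to 44.4 TPM (-1.43 ± 0.71, exact p = 0.0524) and *Yap1* from 124 to 55.9 TPM (-1.15 ± 0.71, exact p = 0.115), without a call. *Tead1* (0.14), *Amotl1* (0.10) and *Wwtr1* (-0.07) lay near 0. None of the 10 passed an adjusted p of 0.05 (edgeR, Benjamini-Hochberg).

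With 2 of 10 higher and 1 of 10 lower the members were near the background. Of 12963 genes 11.9% were called higher and 12.7% lower, and the median log2 ratio was -0.16 over all genes and -0.07 over the 9 members. At the null level *Tead4* would give 6.55 tags over 2 tag types at the depth of the AVC library, and at most 3.75 in either, which is under the 6 tags that a listed tag type needs. The test does not take that limit into account. With TMM scaling the same 3 genes were called, where 14.9% of genes were higher and 9.36% lower. With all GENCODE transcripts *Tead4* had a log2 ratio of 0.33 in the null.

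The first base separated the members here, where over the chambers the 2 ranges had overlapped. *Tead4* is left out, as it had no listed AVC tag. The 5 other genes whose main tag starts with T had log2 ratios of -0.07 to 1.67 in the null over the AVC. The 4 genes with another first base had -1.71 to -0.58, with no overlap. Over all genes the same split was seen, with tags that start with T higher by a median log2 of 1.32 than other tags of the same gene, in 2041 genes. With the tag offset *Lats2* came to -0.75, *Tead3* to 0.79, *Tead2* to -0.35 and *Yap1* to -1.04, and *Tead4* was the only member called, where 11.3% of all genes were called higher. *Tead1* changed its sign, from 0.14 to -0.73.

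**Figure D3:**
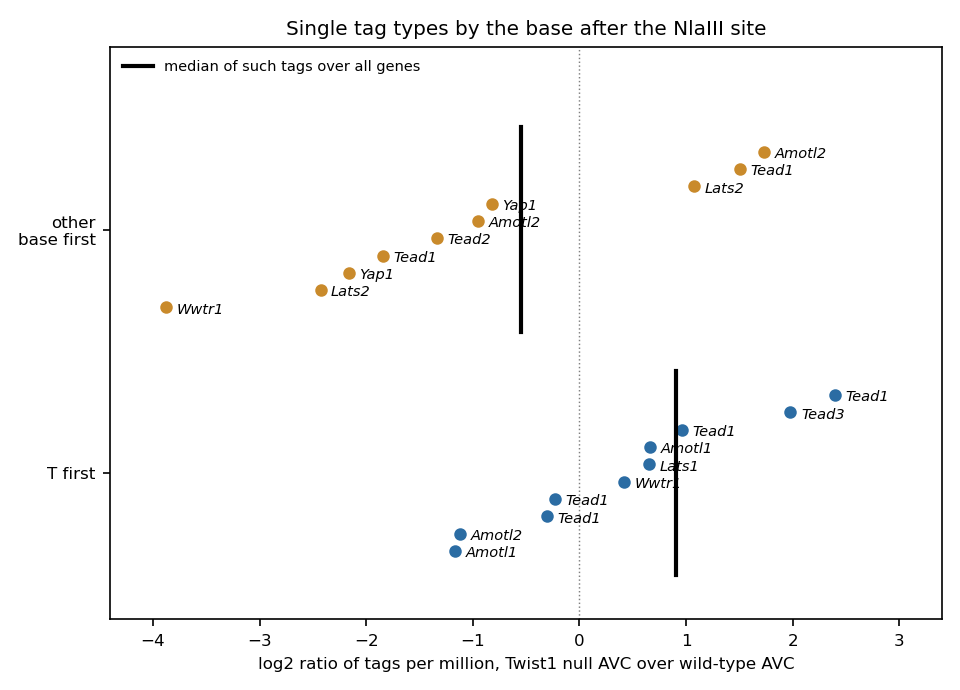
Log2 ratio of single tag types in the null over the wild-type AVC (horizontal axis) for tag types of the 10 genes with at least 50 tags in both libraries together, grouped by the base after the NlaIII site. Vertical bars are the medians of such tags over all genes, 0.91 for T and -0.55 for other bases. Tags of *Tead1*, *Amotl1*, *Amotl2*, *Wwtr1* and *Lats2* fall on both sides of 0. Some T-first tags lie below 0, such as the *Amotl1* tag at site 18 from the 3′ end (-1.17).

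Strain and genotype differ together between these 2 libraries, so their effects cannot be told apart. Cell type markers also differed between the 2 libraries, and they do not tell fewer cells of a type from less RNA per cell. The 7 cushion mesenchyme markers summed to 2412 TPM in the AVC and 452 in the null, with 5 of 7 called lower (*Sox9*, *Postn*, *Col3a1*, *Col1a2* and *Snai2*) and none at 0 in either. *Pdgfra* (35.2 TPM in the AVC, 35.8 in the null) and *Prrx1* (29.8 and 16.1) were not called. Erythroid markers summed to 2432 and 27360 TPM, with 4 of 8 called higher. Cardiomyocyte markers summed to 17281 and 11683 TPM, with 1 of 9 called in each direction, and endothelial and endocardial markers to 501 and 533 TPM. The OFT held 3135 TPM of the mesenchyme list and the chambers 280 and 264. In this sum, as for *Tead2*, *Yap1* and *Lats2*, the AVC and OFT were highest, the null stood between and the chambers were lowest. *Col3a1* gave 1439 TPM of it in the AVC and 2337 in the OFT. *Sox9*, *Col3a1*, *Prrx1* and *Snai2* had that order singly. *Postn* (29.0 TPM) and *Col1a2* (48.0) were lower in the null than in either chamber, and *Pdgfra* was not lower in the null than in the AVC. The part of the cell mixture in the ratios of the 10 genes was not tested.

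Shares within a gene group do not depend on the library total. *Tead1* made up 53.5% of AVC TEAD tags (exact 95% interval 51.1 to 55.9), 53.1% of those from the OFT, 69.2% from the null, 77.5% from the atria and 84.4% from the ventricles. The share of *Tead2* was 43.4% for the AVC, 37.0% for the OFT, 18.8% for the null, 11.9% for the ventricles and 9.83% for the atria. *Yap1* made up 80.4% of *Yap1* and *Wwtr1* tags in the AVC (77.7 to 82.9), 66.0% in the null and 62.9% in the OFT, and 56.7 and 52.6% in the atria and ventricles, where 90 and 76 tags leave wide intervals. *Lats2* made up 81.5% of LATS tags in the AVC (76.7 to 85.7), 77.3% in the OFT and 44.1% in the null (38.9 to 49.4). *Amotl2* made up 61.1% of its pair's AVC tags, 270 of 450 OFT tags, 49.5% of null tags and 72.2 and 74.6% in the atria and ventricles. These groups mix main tags that do and do not start with T, so the shares carry that difference between libraries as well.

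Pairs whose main tags are alike in this respect were set against each other, a choice made after seeing the data. *Tead3* made up 5.48% of *Tead1* and *Tead3* tags in the AVC (4.12 to 7.12) and 4.13% in the ventricles, but 15.8% in the OFT, 14.3% in the null (12.9 to 15.7) and 12.4% in the atria. Here the null lay with the OFT and outside the interval of the wild-type AVC. *Lats2* made up 25.4% of *Lats2* and *Tead2* tags in the AVC (22.7 to 28.2), 24.2% in the OFT and 21.8% in the null (18.9 to 25.0). These intervals overlap, and the ventricles, with none of 46 tags, lay below them. *Lats1* made up 23.3% of *Lats1* and *Wwtr1* tags in the AVC (18.1 to 29.2) and 35.3% in the null (31.4 to 39.3). Only the main tags are alike here. The *Wwtr1* coding tag at site 12, which does not start with T, held 62 AVC tags and 9 null tags. Shares against *Wwtr1* thus still mix the 2 kinds of tag. By the main tags alone *Lats1* had 47 tags in the AVC and 158 in the null, and *Wwtr1* 86 and 246. *Yap1* made up 50.9% of *Yap1* and *Tead2* tags in the AVC (48.4 to 53.5), 40.7% in the OFT and 55.8% in the null (53.0 to 58.5). *Amotl1* made up 56.2% of *Amotl1* and *Wwtr1* tags in the AVC (51.3 to 61.0), 46.6% in the OFT and 59.1% in the null (55.8 to 62.3). For both of these pairs the intervals of the AVC and the null overlapped.

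**Figure D4:**
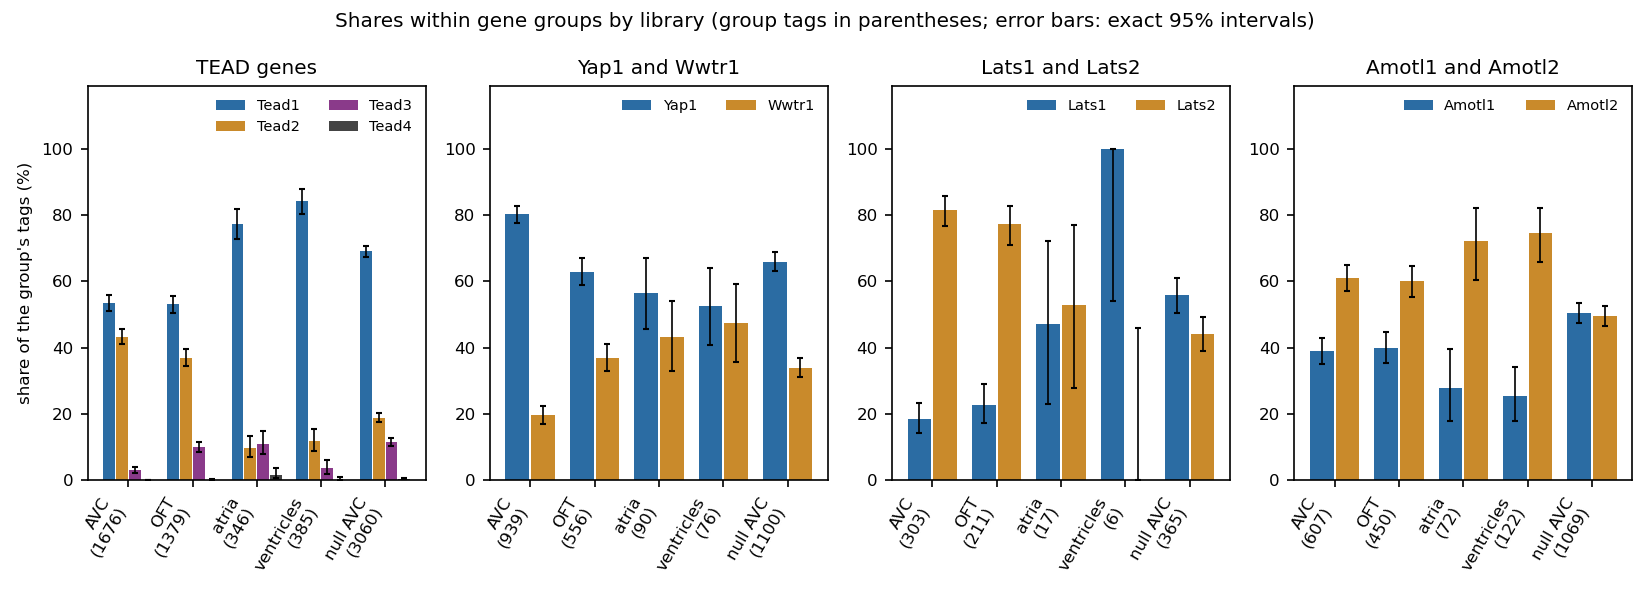
Share of each gene in the tags of its group (vertical axis, percent) in the 5 libraries, with exact 95% binomial intervals and the group's tag count in parentheses. *Tead2* holds 43.4% of TEAD tags in the AVC and 18.8% in the null, and *Lats2* 81.5 and 44.1% of LATS tags.

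Which NlaIII sites carried the tags also differed between libraries. The last site held 66.2% of *Yap1* tags in the AVC (62.7 to 69.6), 78.0% in the OFT and 83.3% in the null, but 17.6% in the atria (8.40 to 30.9) and 45.0% in the ventricles. The site 9 tag took the larger part of the rest, with 42 of 51 atrial *Yap1* tags and 22 of 40 ventricular ones. The last site alone held 500 *Yap1* tags in the AVC library, against 9 and 18 in the atrial and ventricular ones. Neither tag starts with T.

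Of 9 members the share of the last site was higher in the null than in the AVC for 5 and lower for 4. It went from 57.6 to 85.2% for *Amotl1*, from 73.1 to 90.7% for *Tead3* and from 90.8 to 97.2% for *Tead2*, beside *Yap1* and *Wwtr1*. For *Tead1*, *Amotl2*, *Lats2* and *Lats1* sites away from the end held more of the tags. The site 7 tag of *Tead1*, which starts with T, held 494 tags or 23.3% of the gene's in the null, 44 or 4.91% in the AVC, 35 in the OFT and none in the chambers. The last site of *Tead1* held 59.5% in the null and 77.0% in the AVC. For *Amotl2* the site 5 tag held 128 tags in the null (24.2%) and 18 in the AVC (4.85%). For *Lats2* the site 2 tag held 45 of 161 tags in the null and 10 of 247 in the AVC (4.05%), while the last site gave 35.2 TPM in the AVC and 6.55 in the null. Neither the *Amotl2* nor the *Lats2* site tag starts with T, and in TPM their log2 ratios in the null were 1.74 and 1.08. The tag of the other *Lats2* transcript held 9.31% in the AVC and 10.6% in the null.

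*Wwtr1* had the lowest share at the last site of the members in the AVC. That site held 46.7% of AVC tags, 51.0% of OFT tags, 65.8% of null tags and 100% of ventricular tags. The coding tag at site 12 held 62 of 184 AVC tags (33.7%) and 56 of 206 OFT tags, but 9 of 374 in the null (2.41%) and none in the chambers. In the null 2 other sites, 7 and 10 from the end, held 39 and 35 tags that were listed in no other library.

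The *Tead3* rise in the null lay in its AT-rich tag, which went from 38 to 320 tags (log2 ratio 1.98). The tag upstream of it went from 14 to 33 tags, a log2 ratio of 0.14 in TPM. Over all genes with at least 50 tags the median share of the last site was 87.8% for the AVC, 85.7% for the OFT, 96.2% for the atria, 96.4% for the ventricles and 79.2% for the null.

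**Figure D5:**
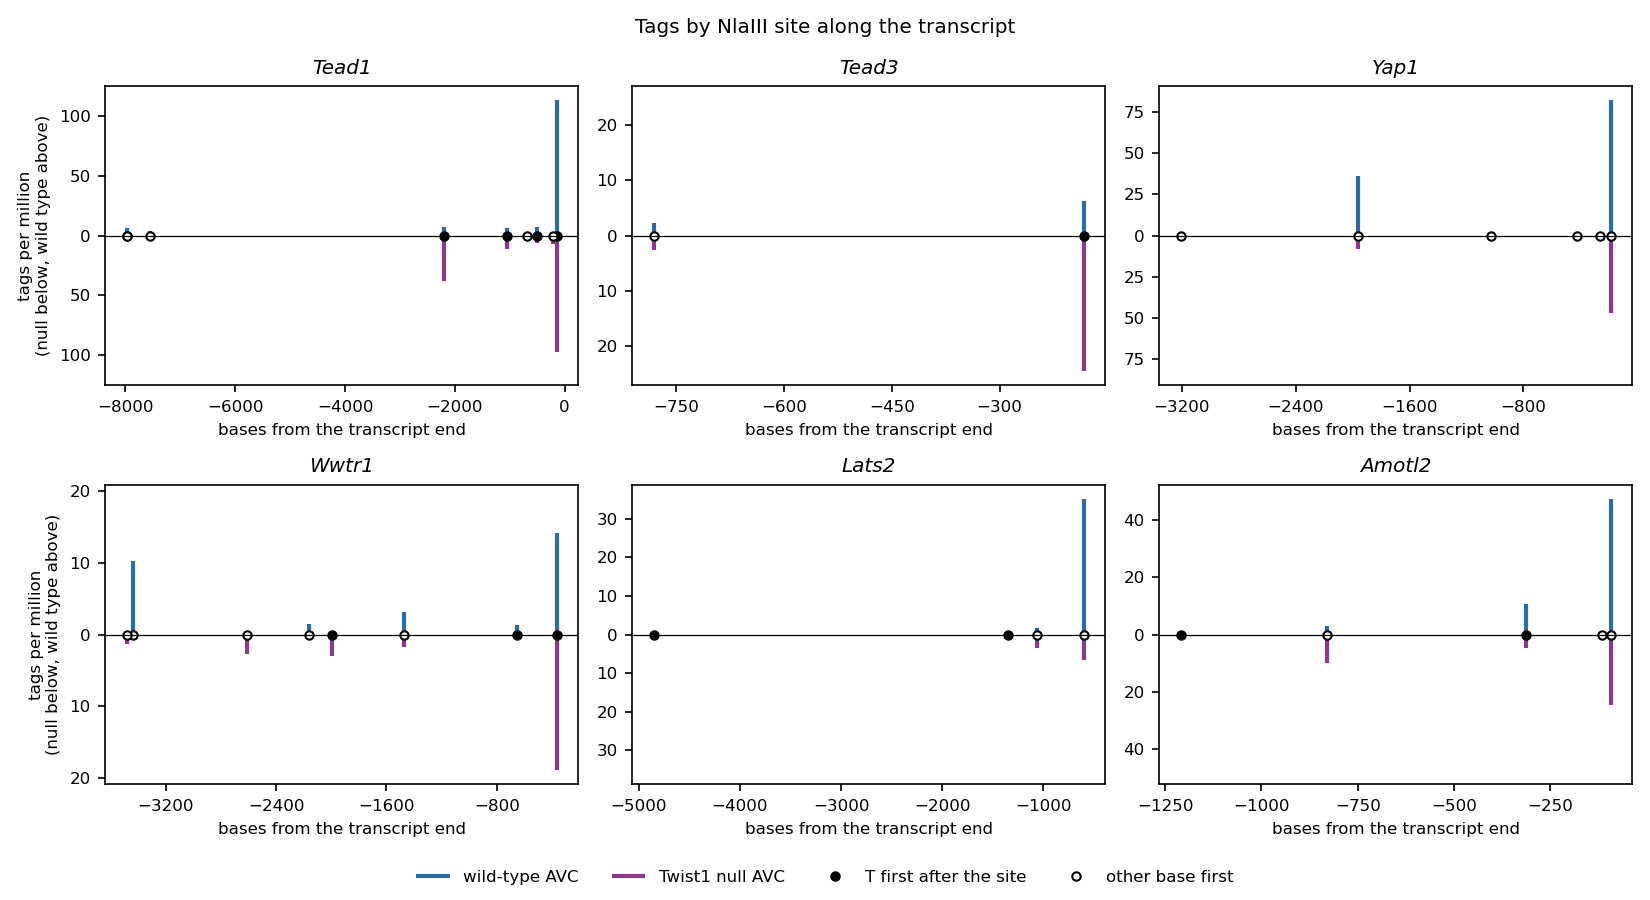
TPM of each tag type (vertical axis, wild-type AVC above and null below the line) by the distance of its NlaIII site from the transcript end (horizontal axis, bases) for 6 genes, each along 1 RefSeq transcript. Filled dots mark tags that start with T, and the *Tead1* tag 2206 bases from the end holds 4.91% of the gene's tags in the AVC and 23.3% in the null.

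The rest of the pathway was read from lists. Of 5 core kinase genes and adaptors 1 was called higher and none lower in the null, where 11.9 and 12.7% of all genes were. That gene was *Sav1*, the scaffold of the MST kinases, at 126 TPM against 35.4 (log2 ratio 1.83 ± 0.71, exact p = 0.0141). Its ratio was 1.23 with the tag offset and was not called. *Stk3*, the gene of MST2, gave 51.0 TPM in wild-type AVC and 45.2 without *Twist1*. In the AVC over the chambers 2 of the 5 were called higher, and none with TMM scaling, where 43.4 and 25.6% of all genes were.

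Of 26 upstream regulators 15 were higher and 1 lower in the AVC than in the chambers. Of all genes 43.4% were higher there and 8.12% lower. With TMM scaling 9 were higher and 3 lower, where 25.6 and 17.5% of all genes were. The median log2 ratio with HQ totals was 1.56 against 1.23 over all genes. In the OFT the counts were 15 and 1, beside 40.6 and 8.88% of all genes, with a median of 1.55 against 1.07. In the null 1 was higher and 7 were lower, with a median of -0.68 against -0.16, where 11.9% of all genes were higher and 12.7% lower. The 7 became 5 with TMM scaling, where *Rassf1* and *Map4k4* lost their calls. The tag offset left 2 of the 26 lower, of which *Patj* was among these 7. *Fat4* and *Dchs1*, the protocadherins that bind each other across cell contacts, fell from 18.8 to 4.08 TPM and from 41.1 to 8.32 TPM (log2 ratios -2.20 and -2.30). The others that fell were *Patj* (-2.90) and *Llgl1* (-1.96), both of apical and basal polarity complexes, *Wtip* (-1.83), *Rassf1* (-1.58) and *Map4k4* (-1.58), a kinase that can act on LATS beside MST. *Wwc1*, the gene of KIBRA, had no listed tag in the AVC and 138 in the null. With the tag offset *Patj* (-2.28) was still called, while *Fat4* (-1.35), *Map4k4* (-0.93), *Wtip* (-0.85), *Dchs1* (-0.82), *Llgl1* (-0.44) and *Rassf1* (-0.34) were not. The upstream genes of highest mean level, *Taok1* and *Dlg1*, were at 86.4 and 78.0 TPM in the AVC and 114 and 48.4 in the null, without a call.

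Of the 4 VGLL cofactors, which compete with YAP and TAZ for TEAD, *Vgll3* and *Vgll4* were found. *Vgll4* gave 7.74 TPM in the AVC, no listed tag in the chambers and 1.23 in the null (log2 ratio -2.64 ± 0.82, exact p = 0.00229, adjusted p = 0.0318 by edgeR), and its ratio was -2.51 with the tag offset. *Vgll3* was listed in the OFT alone.

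Of 20 genes known as YAP and TEAD targets 19 were found. In the AVC 6 were higher than in the chambers and none lower, where 43.4 and 8.12% of all genes were. The median log2 ratio was 0.36 against 1.23 over all genes (-0.59 against 0.28 with TMM scaling). In the OFT 6 were higher, beside 40.6% of all genes, with a median of 0.42 against 1.07. In the null 2 were higher, *Axl* (1.54, exact p = 0.0418) and *Igfbp3* (1.55, exact p = 0.0478), and 3 were lower, *Myof* (-2.62), *Rbms3* (-2.21) and *Ccdc80* (-1.57), with a median of -0.12 against -0.16 and 11.9 and 12.7% of all genes called. *Ccdc80* lost its call with TMM scaling (-1.33) and with the tag offset (-0.99), and *Axl* with the tag offset (0.78). *Ankrd1* and *Tgfb2*, the targets of highest mean level, were at 284 and 172 TPM in the AVC and 382 and 266 in the null, and neither was called there. In the AVC over the chambers *Tgfb2* was called higher (2.84 ± 0.72) and *Ankrd1* had a log2 ratio of 0.14.

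Over the 5 libraries, the genes whose pattern was most like that of *Tead1* were *Tspan3*, *Gmps* and *Mad2l1*, at a root mean square distance of 0.052, 0.053 and 0.056 in centred log2(TPM + 1), among 7294 genes with a mean of at least 10 TPM. Nearest to *Yap1* were *Gmppa*, *Nynrin* and *B4gat1*, at 0.121, 0.146 and 0.154. For *Gmppa* the AVC gave 67.5 TPM, the OFT 42.1, the null 36.4, the atria 6.43 and the ventricles 6.39. None of the 10 genes was among these.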

How the data were processed

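Tag-seq was measured in 5 libraries, 1 per group, 4 wild type and 1 *Twist1* null. The authors deposited raw counts of reads per tag type, with tag types of more than 5 tags kept and no normalization. The smallest deposited count is 6, and the totals of 4223810 to 12977237 HQ tags set the precision. The build mm9 is named in the submitters' processing notes; coordinates here are those of GRCm38.

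Virtual tags were taken from 33363 RefSeq-linked GENCODE M21 transcripts (24303 genes) at every NlaIII site, with 20 adenines added, in Python 3.11.15. Tags matching 1 gene in sense were summed per gene. Tags of several genes (54 tags of *Tead1*) and antisense tags were left out but stay in the totals. Tests were two-sided exact tests in edgeR 4.0.16 (R 4.3.3) with dispersion 0.12, HQ totals and no covariate, with Benjamini-Hochberg values over all genes. SE come from the counts and this dispersion. DESeq2 1.42.0 gave size factors for 1 alternative only, and 16 alternatives were run. The script was tested on simulated data. Quasi-likelihood and DESeq2 tests were not run, since no residual degrees of freedom exist. For the tag sequence offset, tag types with at least 50 tags were used and the test was a likelihood ratio test. Pathway genes named are those called in the null and, per list, the 2 of highest mean level. Nearest genes minimise the root mean square distance of centred log2(TPM + 1). The genes and lists were chosen with earlier results of these data known. The pooled embryos of a library have no replicate, so p-values and intervals leave out the spread between pools.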

Additional observations from a re-analysis of the deposited data

Results flagged for a closer look

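*Tead3* differed between the cushion regions in its ratio to the same chamber libraries, with log2 ratios of 0.55 in the AVC and 2.15 in the OFT. The test of the difference gave a log2 ratio of 1.60 for the OFT over the AVC (exact p = 0.0384, adjusted p = 0.324 by edgeR).

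Antisense tags were used in no comparison. For 3 genes they were higher in the *Twist1* null AVC than in the wild-type AVC beyond the counting intervals, and for *Yap1* they were lower. *Yap1* had 5.10 antisense TPM in the AVC (3.47 to 7.24) and 1.08 in the null (0.590 to 1.81). The share of all genes that differ in this way was not computed. For *Tead1* the null gave 63.2 antisense TPM (95% interval 58.9 to 67.7), the AVC 40.2 (35.3 to 45.5), the OFT 39.1, the ventricles 13.0 and the atria 8.57. *Wwtr1* had 13.1 in the null (11.2 to 15.2), 4.94 in the AVC (3.33 to 7.05), 12.1 in the OFT and none listed in the chambers. *Lats1* had 5.78 in the null (4.55 to 7.24), from 75 tags of 2 tag types, and none listed in the other 4 libraries. Antisense tags made up 9.58% of the null library and 6.42% of the AVC library.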

How the results depend on the processing

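No paired analysis was possible because each group has 1 library. The counts of members called were 7 for the AVC and 8 for the OFT over the chambers, 3 in the null over the AVC and 1 each in the OFT over the AVC and in the ventricles over the atria. With dispersion 0.4 they were 3, 2, 0, 0 and 0. All genes called were then 2872 of 12503, 2837 of 12451, 812 of 12963, 687 of 12541 and 889 of 10705, in the same order. With dispersion 0.05 the members called were 5 in the null and 2 between the chambers, where 5448 of 12963 and 3408 of 10705 genes were called. With TMM scaling and with DESeq2 size factors the OFT count of members was 4. With adjusted p no member was called in the null, in the OFT over the AVC or between the chambers. With the tag offset the counts in these were 1, 0 and 3. Between the chambers none was called with more than 10 tags per tag type, at least 50 tags per gene or 5 tags for missing tag types. Without the atria or the ventricles the count was 7 to 8 for either cushion region. The cause of these moves was not tested.

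Signs turned in uncalled ratios. These were *Tead3* in the AVC over the chambers (-0.40 with TMM, -0.44 with DESeq2 size factors); *Wwtr1* in the null (0.17 with TMM, 0.16 with DESeq2 size factors, 0.0092 with more than 10 tags, 0.42 with the last site only, 0.0512 thinned); *Tead1* (-0.23 with the last site only, -0.73 with the tag offset), *Amotl1* (-0.61) and *Amotl2* (0.14) in the null with the tag offset. In the OFT over the AVC *Lats1* turned (0.066 with TMM, 0.067 with DESeq2 size factors, 0.24 with more than 10 tags and with the last site only, 0.13 with 5 tags filled in, 0.073 with the tag offset), as did *Amotl1* (0.24 with the last site only). Between the chambers these were *Wwtr1* (-0.29 with TMM, -0.28 with DESeq2 size factors, -0.25 without haemoglobin, -0.0440 thinned) and *Yap1* (0.073 with more than 10 tags, 1.13 with the last site only).

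The count of all genes called in the AVC over the chambers, 6442, was 2872 with dispersion 0.4 and 4172 with missing types filled in. In the OFT 6162 became 2837, 3899 and, with at least 50 tags, 4092. In the null 3187 became 5448 and 812 with dispersion 0.05 and 0.4, 1166 with adjusted p and 2087 with at least 50 tags. In the OFT over the AVC 1577 became 2573, 687, 392, 323 and, filled in, 405, and between the chambers 2156 became 3408, 889, 671, 454 and 585.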
